A study of Mus musculus with 2 samples.

Results

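Irf1, Gbp2, Gbp3, Gbp7, Igtp, Irgm1, Cxcl9 and Cxcl10 are 8 interferon-gamma response genes of the mouse: a transcription factor, 5 GTPases and 2 chemokines. They were chosen by name, and all 8 were found among the 13774 genes of the deposited single-cell count table, which holds 2806 cells. Their unique molecular identifiers (UMIs, 1 per captured RNA molecule) were summed over cells grouped by marker genes. Within tumor cells rich in the macrophage gene Lyz2, the sum over the 8 genes was then set against the presence of T-cell receptor complex (Cd3) UMIs and against complement C1q.

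The TEC library holds cells from EO771 tumors, a mammary carcinoma line syngeneic to C57BL6/J mice, and the NEC library holds cells from normal mammary gland. Per the labels, EO771 cells were placed in the mammary fat pad of female C57BL6/J mice aged 8 weeks and grew for about 3 weeks. The genotype was Cdh5Cre-ERT2:ZSGreenl/s/l in both groups, so that tamoxifen switched on ZSGreen through the Cdh5 promoter, which is active in endothelium. Per the labels, live ZSGreen+ cells were sorted and taken through a 10x 3' kit. The name of the deposited table carries the word negs, which the sources used here do not explain, and few of its cells were endothelial by their markers, so whether it holds the ZSGreen+ sort is not settled. There is 1 library per group, the number of animals behind each is not given in the sources used here, and no difference between the libraries has a replicate check.

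The labels name both libraries endothelial, but after quality filtering 7 of 997 TEC and 0 of 1794 NEC cells met an endothelial gate (Cdh5, Pecam1, Kdr and Emcn, 4 or more UMIs together). Most cells were leukocytes by their markers. Gates were applied in order, and those with 20 or more cells in at least 1 library were 559 TEC and 234 NEC cells with 10 or more Lyz2 UMIs, 75 TEC and 655 NEC cells with a Cd3d, Cd3e or Cd3g UMI, 40 TEC and 22 NEC mature dendritic cells (Ccl22 and Ccr7), 38 TEC conventional dendritic cells (Flt3, Xcr1, Clec9a and Cd209a), 145 TEC cells with 5 or more UMIs of Rhox5, 556 NEC B cells (Cd79a and Cd79b), 69 NEC fibroblasts (Dcn and Col1a2) and 29 NEC epithelial cells (Krt8, Krt18 and Epcam), besides ungated cells. TEC cells were deeper, with a median of 8594 UMIs against 2259 in NEC cells, and 2 cell barcodes occurred in both libraries. Macrophage markers (10 genes) summed to 3091 CPM (UMIs scaled to a common total) in TEC and 7678 CPM in NEC Lyz2-gated cells, and all 10 were detected in both.

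Interferon-gamma, made mainly by T and natural killer cells, binds the receptor Ifngr1 and Ifngr2, and the kinases Jak1 and Jak2 pass the signal on to gamma-activated sites (GAS) in promoters. Type I interferons act on interferon-stimulated response elements (ISRE), and many response genes carry sites for both. Irf1 is a transcription factor that interferon-gamma induces. Guanylate-binding proteins (Gbp2, Gbp3, Gbp7) and immunity-related GTPases (Igtp, also called Irgm3, and Irgm1) act on membranes of vacuoles that hold intracellular pathogens. Cxcl9 and Cxcl10 attract Cxcr3-bearing lymphocytes.

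The promoters are shown first, as a description of the genes, because matches to the 2 kinds of element differ among them. Windows from 250 bases before to 50 bases after each RefSeq start (build GRCm38.p6) were searched for a GAS (TTCNNNGAA, which reads the same on both strands) and an ISRE core (GAAANNGAAA, both strands). All 8 genes had a window. The stretches with a match follow, 5′ to 3′ on the gene's strand, with the matched letters in capitals and 15 bases on each side.
Irf1: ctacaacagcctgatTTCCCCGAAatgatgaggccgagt
Gbp2: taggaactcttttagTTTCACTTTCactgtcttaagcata
Gbp3: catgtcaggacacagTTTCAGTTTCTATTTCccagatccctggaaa
Gbp7: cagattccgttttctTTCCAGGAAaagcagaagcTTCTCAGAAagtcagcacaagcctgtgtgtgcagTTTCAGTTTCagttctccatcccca
Igtp: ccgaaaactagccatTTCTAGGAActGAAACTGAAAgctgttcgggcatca
Irgm1: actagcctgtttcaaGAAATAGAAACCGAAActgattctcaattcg
Cxcl10: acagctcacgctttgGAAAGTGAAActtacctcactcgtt

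The Irf1 stretch lies at chr11:53769909-53769947 (plus strand) and held a GAS and no ISRE. Gbp2 (chr3:142620589-142620628, plus strand) and Cxcl10 (chr5:92349078-92349117, minus strand) held 1 ISRE each and no GAS. In Gbp3 (chr3:142559984-142560029, plus strand) and Irgm1 (chr11:48871420-48871465, minus strand) 2 ISRE matches overlapped, again without a GAS. Gbp7 (chr3:142530215-142530307, plus strand) held 2 GAS and 1 ISRE, and Igtp (chr11:58199496-58199546, plus strand) held 1 of each. The Cxcl9 window, chr5:92328030-92328329 on the minus strand, had no match to either set of letters. Irf1 and Gbp3 have a second RefSeq start each, whose windows had no match. In all, 3 of the 10 windows held a GAS, against 8.298% of 32851 windows of the same length. An ISRE was held by 6 of the 10 windows, against 3.443%, and 2 held both, against 0.4536%. A match describes the letters and is not a binding site shown here.

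The 3 Gbp genes lie within chr3:142530336-142638008 and Cxcl9 and Cxcl10 within chr5:92321331-92348889, on the genome build (mm10) named in the submitters' processing notes. Gbp genes are similar in sequence, and how reads shared between family members were counted is not given in the sources used here.

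All 8 genes were higher in TEC than in NEC Lyz2-gated cells. Their summed level was 800.5 CPM in TEC (95% exact Poisson interval 780.2 to 821, counting error only) and 207 CPM in NEC (179.96 to 237). The ratio was 3.86 (95% interval 3.36 to 4.46, exact and conditional on the total). For single genes, a call required 50 UMIs over both groups, a ratio of at least 2 in either direction and an interval excluding 1. By that rule 8 of 8 genes were higher, beside 33.2% of 8213 genes measured above the minimum, and 0 were lower, beside 6.56%. The median log2 ratio was 1.93 for the 8 genes and 0.60 for all measured genes, so that a large part of the table also leaned towards TEC in these cells. Trimmed-mean scaling, which resets that lean, lowers every log2 ratio by 0.40. All genes then split into 1690 higher and 987 lower, against 2723 higher and 539 lower as reported, and the 8 genes stayed higher.

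Irf1 had 586 UMIs (79.3 CPM) in TEC Lyz2-gated cells, against 26 UMIs (25.9 CPM) in NEC Lyz2-gated cells, a ratio of 3.06 (2.07 to 4.73). Gbp2 had 1478 UMIs (200.1 CPM) in TEC and 50 UMIs (49.8 CPM) in NEC, a ratio of 4.02 (3.03 to 5.44). The intervals of the levels did not overlap between the libraries for either gene. With every cell weighted equally, the log2 ratio of Irf1 was 0.96, under 2-fold, and the call ended for it alone. Gbp3 had 400 UMIs (54.2 CPM) in TEC, against 15 UMIs (14.9 CPM) in NEC, a ratio of 3.62 (2.17 to 6.54). Gbp7 had 458 UMIs (62.0 CPM) in TEC, against 20 UMIs (19.9 CPM) in NEC, a ratio of 3.11 (1.99 to 5.14). The guanylate-binding proteins thus had ratios within each other's intervals. Igtp had 378 UMIs (51.2 CPM) in TEC and 9 UMIs (8.96 CPM) in NEC, and its ratio of 5.71 was the least precise of the 8 (2.98 to 12.6). Irgm1 had 489 UMIs (66.2 CPM) in TEC and 25 UMIs (24.9 CPM) in NEC, with the lowest ratio, 2.66 (1.78 to 4.15). The intervals of Igtp and Irgm1 overlapped.

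The chemokine Cxcl9 had 477 UMIs (64.6 CPM) in TEC, against 13 UMIs (12.9 CPM) in NEC, a ratio of 4.99 (2.89 to 9.44). Cxcl10 had 1647 UMIs (223 CPM) in TEC, against 50 UMIs (49.8 CPM) in NEC, a ratio of 4.48 (3.38 to 6.06). These 2 genes were spread over cells very differently. Cxcl10 UMIs were found in 192 TEC cells and Cxcl9 UMIs in 82 TEC cells, and 1 cell held 22.6% of all Cxcl9 UMIs, while 10 cells held 57.2%. Without its top cell, Cxcl9 stood at 50.1 CPM in TEC. Of the 82 cells, 8 also met a dendritic gate.

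The share of cells with a UMI depends on depth. A Gbp2 UMI was present in 53.8% of TEC cells (exact binomial interval 49.6 to 58.0) and 15.4% of NEC cells (11.01 to 20.7) in the Lyz2 gate, where the median depth was 7851 UMIs in TEC and 3874.5 UMIs in NEC. After every cell was thinned to 1000 UMIs the shares were 16.3% (13.3 to 19.6) in TEC and 4.27% (2.07 to 7.72) in NEC. The same thinned shares for Cxcl10 were 12.7% (10.1 to 15.7) in TEC and 3.42% (1.49 to 6.63) in NEC, and 0.36% (0.044 to 1.29) in NEC B cells, which are not a usual source of this chemokine and whose median depth was 1775.5 UMIs. For Irf1 the thinned intervals overlapped, at 6.26% (4.40 to 8.60) in TEC and 3.42% (1.49 to 6.63) in NEC. Irf1, which many cell types express, was found in 4.14% of thinned NEC B cells. At 1000 UMIs per cell 3 of the 8 genes still met the rule; Irf1 and Gbp3 (log2 ratio 0.87 each) were under 2-fold, and the remaining 3 had too few UMIs left.

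**Figure D1:**
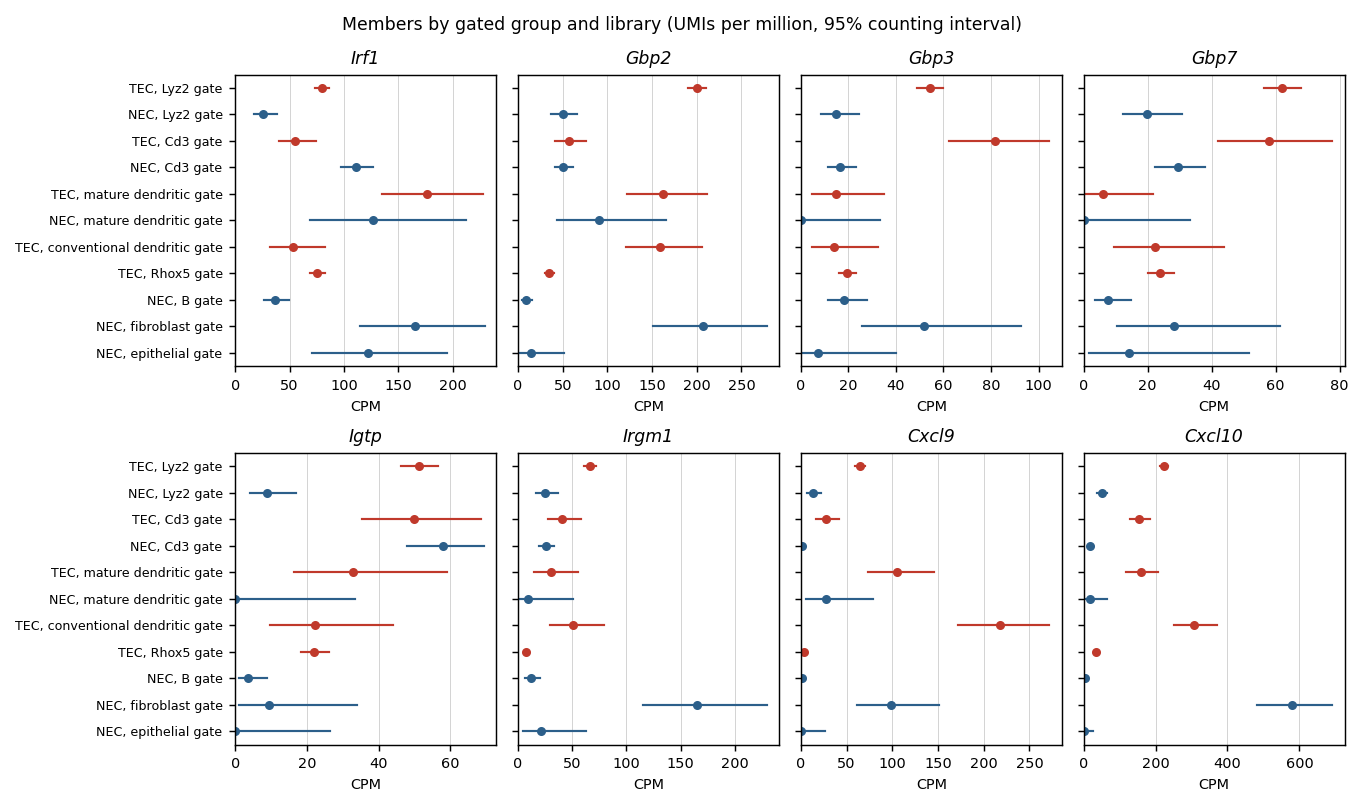
Level of each gene by marker gate (rows) and library, in CPM from summed UMIs, with 95% exact Poisson intervals that cover counting error only. Red points are TEC and blue points NEC. In the Lyz2 gate all 8 red points lie to the right of the blue ones; in the Cd3 gate Irf1 runs the other way, with 55.2 CPM in TEC and 110.8 CPM in NEC.

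Other markers moved with this comparison. In Lyz2-gated cells T-cell markers summed to 290.9 CPM in TEC and 198 CPM in NEC, cytotoxic markers to 804 CPM in TEC and 85.7 CPM in NEC, neutrophil markers to 369 CPM in TEC and 82.7 CPM in NEC, and tumor-line markers (5 genes with Rhox5) to 704.5 CPM in TEC and 12.9 CPM in NEC. Of the TEC cells, 94 held a Cd3 UMI and 30 held 5 or more Rhox5 UMIs, whereas 8 and 0 NEC cells did. Without all these cells the summed ratio was 5.25 (4.54 to 6.10), and 8 of 8 genes were higher, beside 23.2% of 5884 genes. The ratio of the sum was thus larger without the cells that held those transcripts. Irf1, alone of the 8, had a lower TEC level without them, 60.9 CPM (231 UMIs) against 79.3 CPM (586 UMIs). With only the 30 Rhox5 cells left out, 301 of its 586 UMIs remained.

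The composition of the gate also differed, since monocyte markers (Ly6c2, Ccr2, Plac8, Ace and Treml4) summed to 3345 CPM in TEC against 1919 CPM in NEC. Macrophage markers were higher in NEC by their sum, but the median cell had 3551 CPM in TEC and 1815 CPM in NEC. In cells without C1q they summed to 2573 CPM in TEC and 1437 CPM in NEC, and in cells with C1q to 3759 CPM in TEC and 23454 CPM in NEC. Splitting both libraries by C1q, which marks mature macrophages, gave a different count in each class. Among cells without C1q UMIs (376 TEC, 152 NEC), 8 of 8 genes were higher in TEC, beside 29.4% of 6436 genes, with 0 lower, beside 5.30%, and the summed ratio was 4.83 (4.02 to 5.86). Among cells with C1q UMIs (183 TEC, 82 NEC), 4 of 8 were higher, beside 30.9% of 5957 genes, with 0 lower, beside 8.48%, and the summed ratio was 2.56 (2.08 to 3.20). Of these 183 TEC cells, 164 held under 5 Rhox5 UMIs, and the summed values include the rest. With cells weighted equally the sum averaged 1055 CPM in TEC and 295 CPM in NEC cells with C1q. In cells without C1q it averaged 984 CPM in TEC and 169 CPM in NEC.

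In the C1q-positive cells Irgm1 stood at 59.2 CPM in TEC and 59.7 CPM in NEC, a ratio of 0.99 (0.60 to 1.74). Gbp7 stood at 61.7 CPM in TEC and 49.2 CPM in NEC, a ratio of 1.25 (0.73 to 2.33). With cells weighted equally Irgm1 averaged 87.9 CPM in TEC and 53.3 CPM in NEC, and Gbp7 67.4 CPM in TEC and 47.4 CPM in NEC. In cells without C1q the same genes had ratios of 6.44 (3.23 to 15.1) and 7.47 (3.38 to 20.5), on 8 and 6 NEC UMIs. The intervals of these 2 genes did not overlap between the 2 classes. Irf1 (1.77) and Cxcl9 (1.72) also stayed under 2 with C1q, and Gbp2 (2.998), Gbp3 (3.55) and Cxcl10 (5.32) were called. Weighting cells equally moved Irf1 and Cxcl9 in opposite ways. Irf1 averaged 66.7 CPM in TEC and 62.0 CPM in NEC, and Cxcl9 74.2 CPM in TEC and 25.2 CPM in NEC. Igtp had 186 UMIs in C1q-positive TEC cells and 0 in the 82 NEC cells, so that its level was at least 5.47-fold higher when 3 UMIs are taken as the limit for the NEC sum.

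Genes of the signalling chain were read from the same cells. Socs1, an inhibitor of Jak kinases that interferons induce, stood at 72.8 CPM in TEC and 12.9 CPM in NEC Lyz2-gated cells, a ratio of 5.63 (3.26 to 10.6), and was called higher. The receptor genes Ifngr1 (1.19, 0.96 to 1.49) and Ifngr2 (1.29, 1.07 to 1.56) and the kinases Jak1 (0.64, 0.53 to 0.77) and Jak2 (0.71, 0.50 to 1.02) were not called in either direction. Ifng itself had 66 UMIs in 16 TEC cells and 0 UMIs in NEC cells of the Lyz2 gate, at least 2.99-fold higher.

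Of 38 further interferon-gamma response genes listed, 33 were in the table and 26 passed the minimum. Of these, 19 were higher in TEC, 0 lower and 7 neither, with a median log2 ratio of 1.57, beside 33.2% of all genes higher, 6.56% lower and a median of 0.60. Upp1, uridine phosphorylase, had 2014 UMIs in TEC and 0 in NEC, at least 91.3-fold higher. Ccl5, a chemokine that T cells also make, is on the cytotoxic list above as well. It stood at 604.9 CPM in TEC and 77.7 CPM in NEC, a ratio of 7.79 (6.23 to 9.87). Xaf1 stood at 147 CPM in TEC and 18.9 CPM in NEC, a ratio of 7.78 (4.96 to 13.0). The other GTPases of the 2 families were fewer in UMIs. Gbp4 (6.17), Gbp8 (4.28), Gbp9 (4.19) and Iigp1 (8.74) were called higher, and Gbp5 (1.88) and Irgm2 (1.99) were not.

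In Cd3-gated cells the 8 genes did not move together. Their sum was 524.7 CPM (474.5 to 579) in TEC and 310 CPM (286 to 335) in NEC, a ratio of 1.69. Of the 8 genes, 7 passed the minimum of UMIs: 2 were higher, beside 24.2% of 4601 genes, 1 was lower, beside 11.2%, and 4 were neither. Over all genes 1112 were higher and 514 lower, and with trimmed-mean scaling 632 were higher and 940 lower. With counts this low a gene can pass the minimum through the group where it is high.

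Irf1 was the gene that was lower, with 42 UMIs (55.2 CPM) in TEC and 226 UMIs (110.8 CPM) in NEC, a ratio of 0.50 (0.35 to 0.70). Its distance from 2-fold was small, and the call ended when NEC cells under 4000 UMIs were left out (log2 ratio -0.47, interval -1.09 to 0.13), when cells were held to at least 2000 UMIs or thinned to 1000 UMIs, when the NEC cell with the most Irf1 was left out (108 CPM in NEC), or when Cd3 was set at 2 UMIs or more (log2 -0.85). Gbp3 had 62 UMIs (81.5 CPM) in TEC and 34 UMIs (16.7 CPM) in NEC, a ratio of 4.89 (3.17 to 7.67). Cxcl10 had 118 UMIs (155 CPM) in TEC and 37 UMIs (18.1 CPM) in NEC, a ratio of 8.55 (5.87 to 12.7). Both were called higher. Of the NEC Cxcl10 UMIs, 1 cell held 35.1%, and the NEC level was 11.8 CPM without it.

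Gbp2 stood at 56.5 CPM in TEC and 50.5 CPM in NEC (ratio 1.12, 0.77 to 1.61) and Igtp at 49.97 CPM in TEC and 57.9 CPM in NEC (0.86, 0.58 to 1.26), and neither was called. Gbp7 (1.97, 1.30 to 2.95) and Irgm1 (1.60, 0.99 to 2.54) lay between. Cxcl9 had 21 UMIs in 7 TEC cells and 2 UMIs in 1 NEC cell, a ratio of 28.2 with an interval of 6.88 to 248, under the minimum.

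**Figure D2:**
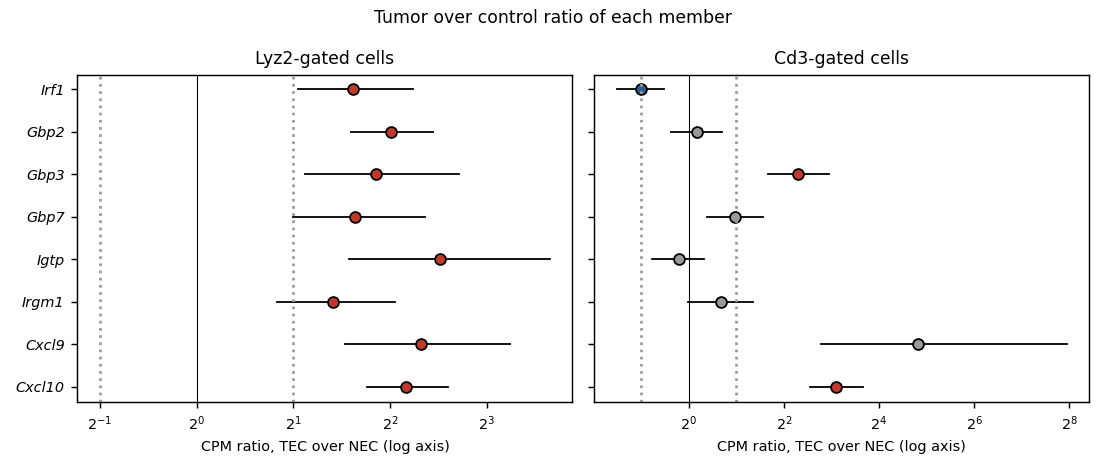
Ratio of TEC to NEC level for each gene in Lyz2-gated cells (left) and Cd3-gated cells (right) on log axes, with 95% intervals for counting error. Red marks genes called higher in TEC, blue lower, grey neither or under the minimum; the dotted lines mark 2-fold. All 8 genes are red on the left, while on the right Gbp3 and Cxcl10 are red and Irf1 is blue.

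Macrophage transcripts moved with the Cd3 comparison. A Lyz2 UMI was present in 55 of 75 TEC and 56 of 655 NEC cells of the Cd3 gate, and macrophage markers summed to 760 CPM in TEC and 84.8 CPM in NEC, with 10 of 10 detected in TEC and 9 of 10 in NEC. Mature dendritic markers summed to 1005 CPM in TEC and 499 CPM in NEC. Their part in the chemokine values was not tested. In the cells with no Lyz2 UMI (20 TEC, 599 NEC), Cxcl10 still stood at 108 CPM in TEC and 18.1 CPM in NEC, a ratio of 5.98 (3.21 to 10.8), and Irf1 at 51.3 CPM in TEC and 117 CPM in NEC, a ratio of 0.44 (0.20 to 0.85). There 2 genes (Irgm1 and Cxcl10) were higher, beside 18.6% of 3431 genes, and 1 (Irf1) was lower, beside 7.81%.

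The lymphocytes also differed in type, since cytotoxic markers summed to 5538 CPM in TEC and 1035 CPM in NEC Cd3-gated cells. That list includes the response gene Ccl5. Ifng stood at 60.5 CPM in TEC (46 UMIs in 17 cells) and 12.7 CPM in NEC (26 UMIs in 13 cells), a ratio of 4.75 (2.87 to 8.00). The receptor Cxcr3 stood at 40.8 CPM in TEC and 13.7 CPM in NEC, a ratio of 2.97 (1.72 to 5.14), and Jak2 had a ratio of 2.04 (1.37 to 3.02). Ifngr1 (0.45, 0.39 to 0.53) and Jak1 (0.40, 0.30 to 0.51) were lower. Socs1 (0.83) and Ifngr2 (0.74) were not called. Of the 33 further response genes, 15 passed the minimum, 13 of them higher, 0 lower and 2 neither, beside 24.2% of all genes higher and 11.2% lower. The list was led by Irf8 (ratio 15.7, 11.7 to 21.5), Serpina3g (12.7, 7.68 to 22.1) and Psmb8 (5.59, 4.87 to 6.42). Irf8 is also a macrophage and dendritic cell gene.

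In the mature dendritic gate 3 of the 8 genes passed the minimum. Cxcl10, with 53 UMIs (159 CPM) in TEC and 2 UMIs (18.0 CPM) in NEC, was higher (ratio 8.80, 2.32 to 74.5), 1 of 3 beside 20% of 1075 genes, and none was lower, beside 6.88%. Only 5 TEC cells held its UMIs, and 1 of them held 49.1%, without which the TEC level was 82.7 CPM. Cxcl10 passed the minimum through its TEC UMIs, and 26 of these were in that cell. Without that cell it would be under the minimum, so the call rests on 1 cell. Irf1 stood at 177 CPM in TEC and 126 CPM in NEC (1.40, 0.77 to 2.71) and Gbp2 at 162 CPM in TEC and 90.2 CPM in NEC (1.79, 0.90 to 3.95). Jak2 was lower (0.50, 0.29 to 0.87), and 2 of 8 measured response genes, Irf8 and Ccl5, were higher. Markers of other cell types moved with this comparison. Macrophage markers summed to 407 CPM in TEC (10 of 10 detected) and 144 CPM in NEC (5 of 10), monocyte markers to 791 CPM in TEC (3 of 5) and 189 CPM in NEC (1 of 5), T-cell markers to 267 CPM in TEC (4 of 8) and 72.2 CPM in NEC (1 of 8), and cytotoxic markers to 10222 CPM in TEC (6 of 6) and 4510 CPM in NEC (3 of 6). The part of these markers in the Cxcl10 value was not tested. Ccl5, higher here as a response gene, is also on the cytotoxic list.

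Across all gates of 20 or more cells, each gene had its own order of levels. Irf1 was highest in TEC mature dendritic cells (177 CPM, 135 to 228), NEC fibroblasts (165 CPM), NEC mature dendritic cells (126 CPM), NEC epithelial cells (122 CPM) and NEC Cd3-gated cells (110.8 CPM), a run of neighbours whose intervals overlapped. It was lowest in NEC Lyz2-gated cells (25.9 CPM) and NEC B cells (36.2 CPM). TEC Lyz2-gated cells and TEC Rhox5-gated cells, at 79.3 CPM and 75.5 CPM, could not be separated. Without its 30 cells with 5 or more Rhox5 UMIs, the TEC Lyz2 gate stood at 63.8 CPM (56.8 to 71.4).

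Gbp2 was highest in NEC fibroblasts (207 CPM, 151 to 278) and TEC Lyz2-gated cells (200.1 CPM, 190.02 to 211), followed by both TEC dendritic gates (162 CPM and 159 CPM), and all 4 intervals overlapped. Without its 30 cells with 5 or more Rhox5 UMIs, the TEC Lyz2 gate stood at 262 CPM (248 to 277). Of these gates it then overlapped only the fibroblasts. In the conventional dendritic gate 1 cell held 63.2% of the Gbp2 UMIs and the level was 60.9 CPM without it, so that this place rests on 1 cell. It was lowest in NEC B cells (8.62 CPM, 4.14 to 15.9). Gbp3 was highest in TEC Cd3-gated cells (81.5 CPM, 62.5 to 105), above the interval of TEC Lyz2-gated cells (54.2 CPM, 49.0 to 59.7). Without the 30 Rhox5 cells the Lyz2 gate stood at 64.8 CPM (57.8 to 72.5), and the intervals overlapped. In the remaining gates of either library Gbp3 was at or under 51.8 CPM. Gbp7 was highest in TEC Lyz2-gated cells (62.0 CPM), TEC Cd3-gated cells (57.9 CPM) and TEC ungated cells (63.4 CPM), with no separation among these 3, and it had 2 UMIs in TEC and 0 in NEC mature dendritic cells.

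The 3 highest levels of Igtp, with overlapping intervals, were in NEC Cd3-gated cells (57.9 CPM, 47.9 to 69.3), TEC Lyz2-gated cells (51.2 CPM, 46.1 to 56.6) and TEC Cd3-gated cells (49.97 CPM, 35.4 to 68.6), and Igtp was under 10 CPM in NEC fibroblasts, NEC Lyz2-gated cells and NEC B cells. Irgm1 was highest in NEC fibroblasts (165 CPM, 115 to 229), with no overlap with the next, TEC Lyz2-gated cells (66.2 CPM, 60.5 to 72.3). It was lowest in TEC Rhox5-gated cells (7.18 CPM, 5.21 to 9.63).

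Cxcl9 was highest in TEC conventional dendritic cells (218 CPM, 172 to 272), where 11 of 38 cells held it and 1 cell held 43.6% of its UMIs. TEC mature dendritic cells (105 CPM) and NEC fibroblasts (98.9 CPM) followed with overlapping intervals, and then TEC Lyz2-gated cells (64.6 CPM). In TEC mature dendritic cells 4 cells held Cxcl9 UMIs, and the top one held 45.7% of them. Without the top cell of each gate the level was 58.0 CPM there and 50.1 CPM in TEC Lyz2-gated cells. Without its 30 Rhox5 cells the Lyz2 gate stood at 90.2 CPM (81.9 to 99.2) for Cxcl9, and at 67.6 CPM with its top cell also left out. The interval of 81.9 to 99.2 overlapped those of TEC mature dendritic cells and NEC fibroblasts. Cxcl10 was highest in NEC fibroblasts (579 CPM, 481 to 691), then in TEC conventional dendritic cells (307 CPM, 252 to 370) and TEC Lyz2-gated cells (223 CPM, 212 to 234). Without its 30 Rhox5 cells the TEC Lyz2 gate stood at 322 CPM (306 to 338), an interval that overlapped that of the conventional dendritic cells. In the conventional dendritic gate 1 cell held 63.6% of the Cxcl10 UMIs and the level was 115 CPM without it, below TEC Lyz2-gated cells, so that this place in the order rests on 1 cell.

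NEC fibroblasts had the highest sum of the 8 genes among gates of 20 or more cells, 1304 CPM (1155 to 1467) over 277 UMIs in 49 of 69 cells. Relative to NEC Lyz2-gated cells, 4 of the 8 genes passed the minimum and all 4 were higher, beside 17.5% of 2504 genes. Cxcl10 had a ratio of 11.6 (8.31 to 16.5), Irgm1 of 6.62 (3.85 to 11.5), Irf1 of 6.36 (3.72 to 11.01) and Gbp2 of 4.16 (2.71 to 6.37). Igtp had 2 UMIs in 1 fibroblast, under the minimum. Of the further response genes 9 were measured, of which 1 was higher and 4 were lower, beside 26.7% of all genes lower. Pan-leukocyte markers were at 14.1 CPM in the fibroblast gate, with 2 of 5 detected, against 2668 CPM in the NEC Lyz2 gate. Lists named for other cell types also had UMIs in the fibroblast gate. B-cell markers summed to 796 CPM there (4 of 6 detected, in 78.3% of cells) and macrophage markers to 466 CPM (5 of 10). Monocyte markers summed to 461 CPM (3 of 5), T-cell markers to 184 CPM (3 of 8) and tumor-line markers to 513 CPM (2 of 5). Pan-leukocyte markers were found in 1.45% of the gate's cells. Tumor-line markers, a list of Rhox5, Nppb, Tex19.1, Cav1 and Cald1, were found in 72.5% of them, in a library without tumor. Whether these UMIs came from other cell types, and their part in the values above, was not tested. The cell with the most Cxcl10 held 17.9% of the fibroblast UMIs of that gene, and the level without it was 489 CPM.

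TEC cells gated on Rhox5, a homeobox gene on the tumor-line list, held less of most of the 8 genes than TEC Lyz2-gated cells. The 8 genes summed to 219.5 CPM (208 to 232) there and to 800.5 CPM in TEC Lyz2-gated cells, and 7 of 8 were lower, beside 16.1% of 9484 genes. Cxcl9 had the lowest ratio, 0.061 (0.038 to 0.091), and Irgm1 followed at 0.11 (0.078 to 0.15). Irf1 was the exception, at 75.5 CPM in Rhox5-gated and 79.3 CPM in Lyz2-gated cells, a ratio of 0.95 (0.84 to 1.08). The Lyz2 gate was applied first and holds 30 cells with 5 or more Rhox5 UMIs. Without them its Irf1 level was 63.8 CPM (56.8 to 71.4), below that of Rhox5-gated cells (68.8 to 82.7) with overlapping intervals. Rhox5-gated cells were deep, with a median of 37749 UMIs.

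Within the 559 tumor Lyz2-gated cells, the question was whether cells that also held T-cell transcripts had more of the 8 genes. They did not by the summed counts. Cells with a Cd3 UMI (94) had a higher median depth, 9975 UMIs, than cells without (465), 7583 UMIs. None of the 8 genes was higher in Cd3-positive cells, beside 6.17% of 7969 genes, and 2 were lower, beside 4.22%. Over all genes 492 were higher and 336 lower, and with trimmed-mean scaling 288 were higher and 583 lower. Gbp2 stood at 100.6 CPM in Cd3-positive and 236 CPM in Cd3-negative cells, a ratio of 0.43 (0.37 to 0.50). Cxcl9 stood at 13.8 CPM (27 UMIs) in Cd3-positive and 82.9 CPM (450 UMIs) in Cd3-negative cells, a ratio of 0.17 (0.11 to 0.25).

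The other 6 genes were not called. Irgm1 was nearest to it (0.57, 0.44 to 0.72), Gbp3 (0.78), Cxcl10 (0.80) and Gbp7 (0.80) lay somewhat below 1 but above 1 without Rhox5 cells, with cells weighted equally and at 6000 UMIs per cell, and Igtp (0.96, 0.75 to 1.21) and Irf1 (1.15, 0.96 to 1.38) had intervals that include 1. For Cxcl10, 1 cell with 110 UMIs held 29.8% of the Cd3-positive sum, and without it the level was 133 CPM in Cd3-positive cells, against 235 CPM in Cd3-negative cells. Without Rhox5 cells the Cd3-positive level was 349 CPM, but 232 CPM when that cell was also left out, against 315 CPM in Cd3-negative cells. Its place above 1 there rests on that cell. Among cells without C1q, Cxcl10 stood at 88.2 CPM in Cd3-positive and 238 CPM in Cd3-negative cells (log2 ratio -1.43). Among cells with C1q it stood at 265 CPM in Cd3-positive and 231 CPM in Cd3-negative cells (log2 ratio 0.20). The same cell held 37.4% of that Cd3-positive sum, and without it the level was 167 CPM. The direction among cells with C1q thus rests on 1 cell. All 66 Ifng UMIs of these 559 cells, in 16 cells, were in Cd3-positive cells (33.7 CPM), so the level was at least 60.9-fold higher than in Cd3-negative cells. Socs1 (1.02), Ifngr1 (1.31), Jak1 (1.30) and Jak2 (0.91) were not called. Of 26 measured response genes, Ccl5 was higher (2.85, 2.69 to 3.02), Cd274 (0.50, 0.40 to 0.62) and Batf2 (0.28, 0.13 to 0.53) were lower, and 23 were neither, beside 6.17% of all genes higher and 4.22% lower.

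Tumor-line transcripts moved with Cd3. Tumor-line markers summed to 1021 CPM in Cd3-positive and 590 CPM in Cd3-negative cells, and macrophage markers to 1752 CPM in Cd3-positive and 3574 CPM in Cd3-negative cells. The 30 cells with 5 or more Rhox5 UMIs had a median of 85363 UMIs, and 12 of them were Cd3-positive. Without them (82 Cd3-positive and 447 Cd3-negative cells), Gbp2 had a ratio of 0.60 (0.51 to 0.71) and was no longer called, and the ratio of the sum was 0.85 (0.79 to 0.92), against 0.66 with them. Cxcl9 stayed at 0.18 (0.11 to 0.29). Only Cxcl9 was then lower, beside 2.64% of 5994 genes, and 0 were higher, beside 4.74%.

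**Figure D3:**
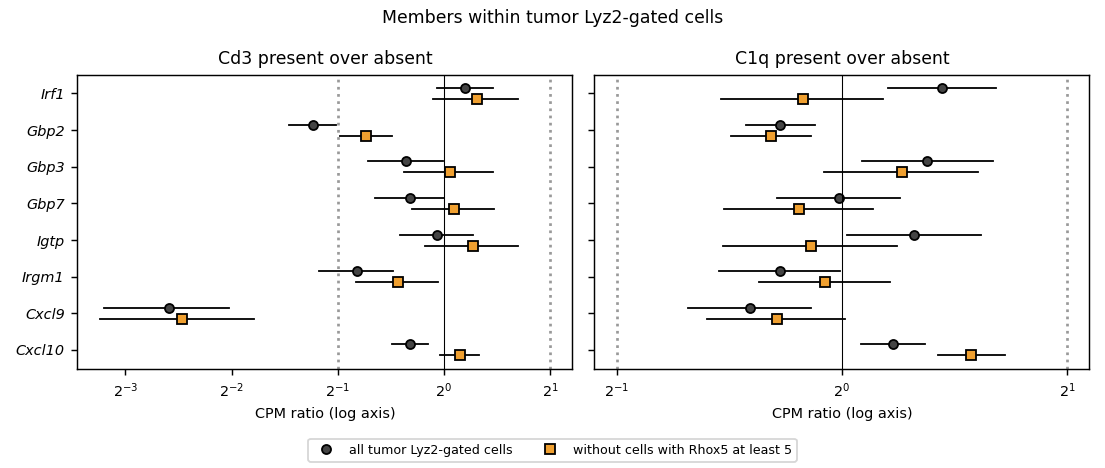
Ratios within tumor Lyz2-gated cells, for cells with over cells without Cd3 UMIs (left) and with over without C1q UMIs (right), on log axes with 95% intervals for counting error. Circles are all 559 cells, squares leave out the 30 cells with 5 or more Rhox5 UMIs, and dotted lines mark 2-fold. Cxcl9 lies below the lower dotted line on the left in both sets, Gbp2 only with all cells, and no gene reaches a dotted line on the right.

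Per cell, the medians lay close together. The 8 genes summed to a median of 4.36 UMIs per 10000 (quartiles 1.59 to 9.62) in Cd3-positive and 4.09 per 10000 (1.32 to 12.4) in Cd3-negative cells. By number of Cd3 UMIs the medians were 3.50 with 1 (28 cells), 4.64 with 2 to 9 (39 cells) and 6.50 with 10 or more (27 cells). In the same order, the medians without cells holding 5 or more Rhox5 UMIs were 4.77, 4.95 and 6.50. The means over all cells of these classes ran the other way, at 13.0, 9.55 and 6.17. The distribution was skewed, with a highest value of 169 per 10000 in a cell with 1 Cd3 UMI and 132 in a Cd3-negative cell. With each cell thinned to 6000 UMIs, 18.1% of Cd3-positive and 21.7% of Cd3-negative cells held no UMI of any of the 8 genes. Across the 559 cells, which share 1 library, the Spearman coefficient of the thinned sum with thinned Cd3 UMIs was 0.0039.

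At that equal depth the genes differed. Irf1 was found in 37.2% of Cd3-positive and 24.3% of Cd3-negative cells, and Gbp7 in 37.2% of Cd3-positive and 29.2% of Cd3-negative cells. Cxcl9 was found in 5.32% of Cd3-positive and 13.1% of Cd3-negative cells. Gbp2 (43.6% and 46.5%), Gbp3 (25.5% and 24.7%), Igtp (24.5% and 21.3%), Irgm1 (30.9% and 33.3%) and Cxcl10 (31.9% and 28.2%), each with the Cd3-positive share first, differed by less than 4 points.

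C1q level was the second axis. C1qa, C1qb and C1qc had no UMI in 376 of the 559 cells, so the median level was 0 and the split became presence against absence, with 183 cells holding a C1q UMI, 51 of them a single one. None of the 8 genes was higher in C1q-positive cells, beside 3.69% of 7969 genes, and none was lower, beside 1.66%. Over all genes 294 were higher and 132 lower, and with trimmed-mean scaling 192 were higher and 191 lower. The sum stood at 810.5 CPM in C1q-positive and 793 CPM in C1q-negative cells. Ratios ran between Cxcl9 (0.75, 0.62 to 0.91) and Irf1 (1.36, 1.15 to 1.61), with Cxcl10 at 1.17 (1.06 to 1.29). Both chemokine values rest on 1 cell. Without the top cell of the C1q-negative class Cxcl9 stood at 46.6 CPM there, against which the C1q-positive level of 54.5 CPM is the higher one. Without the top cell of the C1q-positive class Cxcl10 stood at 209 CPM in C1q-positive and 207 CPM in C1q-negative cells. Irgm2 was the 1 response gene of 26 called higher (2.33, 1.41 to 3.92). Ifng was higher (5.80, 3.06 to 11.9) on 54 UMIs in C1q-positive and 12 in C1q-negative cells, all of them in Cd3-positive cells. Without cells holding 5 or more Rhox5 UMIs, 5 signalling genes passed the minimum, against 6 with them, and none was called higher. Ifng was not among the 5, since the Cd3 split of the same cells, where it would stand out, also had 0 signalling genes higher. Part of its UMIs thus lay in the cells left out. Its difference by C1q without them was under the minimum and was not tested.

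Without cells holding 5 or more Rhox5 UMIs, Irf1 turned to 0.89 (0.69 to 1.13), Cxcl10 moved to 1.49 (1.35 to 1.65), and again 0 genes were called higher, beside 1.25% of 5994 genes, or lower, beside 0.934%. Leaving out Cd3-positive cells as well also gave 0 calls, beside 1.24% of 5317 genes higher and 0.865% lower. Medians per 10000 UMIs were 3.75 (quartiles 1.34 to 13.2) in C1q-positive and 4.22 (1.32 to 11.7) in C1q-negative cells. By level they were 4.40 under 5 C1q UMIs per 10000 (80 cells), 4.61 at 5 to under 50 (63 cells) and 2.99 at 50 or more (40 cells), all with wide and overlapping quartiles. Cxcl9 ran the other way by detection, in 10.1% of thinned cells without C1q, 8.75% in the lowest C1q class, 19.0% in the middle and 22.5% in the highest. The Spearman coefficient of the thinned sum with C1q was 0.031 over 559 cells and 0.011 over the 183 C1q-positive cells. Depth before thinning had a coefficient of -0.015.

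**Figure D4:**
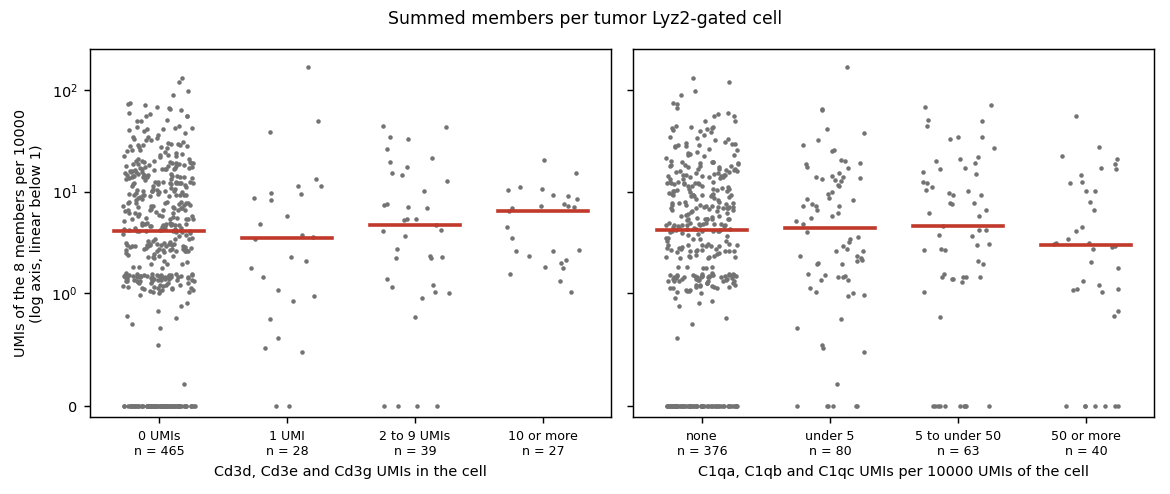
Summed UMIs of the 8 genes per 10000 UMIs in each of the 559 tumor Lyz2-gated cells (grey points; log axis, linear below 1), by Cd3 UMIs (left) and C1q level (right). Red lines are medians, which lie between 3.50 and 6.50 on the left and between 2.99 and 4.61 on the right, far less apart than the cells within any class.

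In NEC Lyz2-gated cells the split by C1q gave another result for the sum, 316 CPM in C1q-positive (82 cells, 90 UMIs) and 164 CPM in C1q-negative cells (152 cells, 118 UMIs), a ratio of 1.93 (1.45 to 2.56). Of the 8 genes 2 passed the minimum, Gbp2 (1.30) and Cxcl10 (0.89), and neither was called in this gate, where 8.78% of 1970 genes were higher and 10.3% lower. Irgm1 had 17 UMIs in C1q-positive and 8 in C1q-negative cells (5.37, 2.20 to 14.4), and Gbp7 had 14 UMIs in C1q-positive and 6 in C1q-negative cells (5.90, 2.13 to 18.7), both under the minimum. By summed UMIs, the same 2 genes had the TEC to NEC ratios nearest to 1 in C1q-positive cells. With cells weighted equally, the TEC means of both were above the NEC means there.

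The 8 genes were not a single block within tumor Lyz2-gated cells. At 6000 UMIs per cell, 118 of 559 cells (21.1%) held none of the 8, 123 held 1, and 3 cells held all 8. Over the 28 pairs the Spearman coefficient across cells ran between 0.011 and 0.39 with a median of 0.22. Irgm1 and Cxcl10 were the closest pair (0.39), then Gbp2 and Gbp3 (0.37) and Gbp7 and Irgm1 (0.33). Of cells with Irgm1, 48.9% also held Cxcl10, against 18.9% of cells without Irgm1. The pair furthest apart was Irf1 and Gbp3 (0.011).

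Cxcl9 and Irf1 stood apart from the other 6. Cxcl9 had a coefficient of 0.07 with Cxcl10, and its highest, with Gbp2, was 0.23. With the interferon-stimulated gene Isg15, a ubiquitin-like protein, Cxcl9 had 0.09 and Irf1 0.01, whereas Cxcl10 had 0.47, Irgm1 0.44, Gbp2 0.42, Gbp3 0.35, Igtp 0.32 and Gbp7 0.30. With Ifit3, Cxcl9 (0.0080) and Irf1 (0.082) were again the lowest, the other 6 lay between Gbp3 (0.31) and Cxcl10 (0.52), and their order was not the same. In the promoters printed above, Irf1 had a GAS alone and Cxcl9 no match, and the 6 others each had an ISRE. That is a description of few promoters and sparse counts, with no test.

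**Figure D5:**
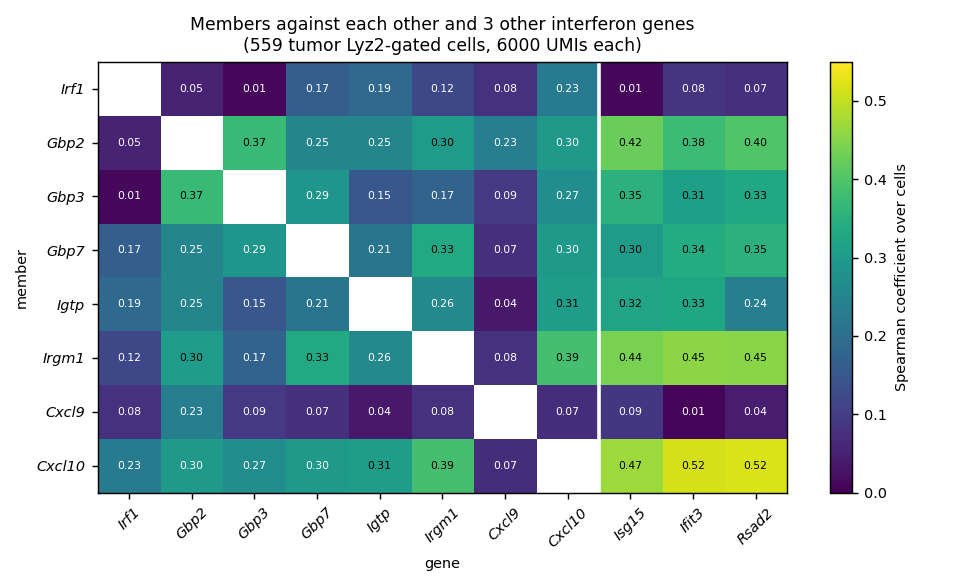
Spearman coefficients over the 559 tumor Lyz2-gated cells, each thinned to 6000 UMIs, between the 8 genes (rows) and the same genes plus Isg15, Ifit3 and Rsad2 (columns). Colour gives the coefficient. The Cxcl9 and Irf1 rows stay at or below 0.23, while Cxcl10 reaches 0.52 with Ifit3 and Rsad2.

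Among 3961 genes with 200 or more UMIs in these cells, the 10 most like the sum of the 8 genes were Rsad2 (0.58), Isg15 (0.57), Zbp1 (0.57), Ifit3 (0.54), Cmpk2 (0.51), Ifit1 (0.51), Ifi47 (0.50), Ifit1bl1 (0.46), Ifit2 (0.46) and Ifi204 (0.46), by Spearman coefficient over 559 cells. The median over all 3961 genes was -0.02. Rsad2 (viperin), Isg15 and the Ifit genes are best known as type I interferon response genes, and Ifi47 is another immunity-related GTPase. Lyz2 had 0.017. Without cells holding 5 or more Rhox5 UMIs, Isg15 stood at 0.58 and Ifit3 at 0.55.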

How the data were processed

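The submitters' processing notes name the mm10 build, STAR 2.5.1b, Cell Ranger 2.0.2 and Seurat, without settings. The authors deposited UMI counts per gene and cell, whole numbers with no normalization. Columns named "control" were taken as NEC on that word alone and those named "tumor" as TEC. Totals were 16444540 UMIs in TEC and 5228289 in NEC cells, and the shallowest kept cells had 6376 UMIs in TEC and 1157 UMIs in NEC.

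Cells under 500 genes, under 1000 UMIs or over 10% mitochondrial UMIs were dropped, 0 from TEC and 5 from NEC. Scrublet (scanpy 1.11.5) removed 3 TEC and 7 NEC cells; it marked few cells and left in place tumor cells with transcripts of several types, whose values stand beside the results. Gates were applied in a fixed order, Lyz2 first; in TEC 30 cells of the gate had 10 or 11 Lyz2 UMIs and 34 cells had 8 or 9.

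UMIs were summed per gate and library and scaled to CPM. No test was run, each group being 1 library; Poisson, binomial and conditional Clopper-Pearson intervals (95%) cover counting error only. A sum of 0 was set to 3 UMIs for a bound. The rule was tested on simulated counts: in the Lyz2-gated comparison of TEC with NEC 100% of 163 genes changed 4-fold were called, and 0.842% of unchanged genes among 8116. Cells were thinned to 1000 UMIs across libraries and to 6000 within TEC.

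The 8 genes, the lists and the gates were chosen with earlier results of these data known. Named genes are the 8, the signalling genes except 1 that is not reported here, the 3 response genes with the highest and lowest bounds, and the 10 most like the sum; Gbp4, Gbp5, Gbp8, Gbp9, Irgm2 and Iigp1 in the Lyz2 gate, Batf2 and Cd274, and the Isg15 and Ifit3 values of single genes were added after their values were seen. Promoter sequences are from RefSeq (GRCm38.p6). Python 3.11.15, numpy 2.4.6, scipy 1.17.1, pandas 2.3.3 and matplotlib 3.10.9 were used.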

Additional observations from a re-analysis of the deposited data

Results flagged for a closer look

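Irf1 differed in direction between gates. Its log2 ratio of TEC over NEC was 1.62 in Lyz2-gated cells (586 UMIs in TEC, 26 in NEC) and -1.004 in Cd3-gated cells (42 UMIs in TEC, 226 in NEC). The difference between the gates was not tested, since each rests on 1 library per group. The 5 GTPases and the 2 chemokines showed no such reversal that passed the rule for a call in both gates.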

How the results depend on the processing

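The 8 genes kept their direction in Lyz2-gated cells under all 13 alternatives run, with the log2 ratio of their sum between 1.55 and 2.39 (1.95 as reported). It was 1.55 with trimmed-mean scaling, 1.60 with Lyz2 at 5 UMIs, 2.24 with cells weighted equally (7 genes called, with Irf1 at a log2 ratio of 0.96), 2.28 with Lyz2 at 20 UMIs, 2.30 with Lyz2 at 10 per 10000 UMIs, 2.31 without Rhox5 cells and 2.39 without Rhox5 or Cd3 cells; 3 genes were called at 1000 UMIs per cell, with fewer UMIs counted, and over all genes 474 were then higher and 135 lower, against 2723 and 539. In Cd3-gated cells the log2 ratio of the sum (0.76) was 0.33 with trimmed-mean scaling, 0.97 without NEC cells under 4000 UMIs and 1.05 at 1000 UMIs per cell. There 0 genes were called higher at 1000 UMIs, and 0 were lower with at least 2000 UMIs per cell, at 1000 UMIs, without NEC cells under 4000 UMIs and with Cd3 at 2 UMIs. In mature dendritic cells 2 genes, not 1, were higher with cells weighted equally and with no minimum.

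For cells with over cells without Cd3, the log2 ratio of the sum (-0.60) was -0.083 with cells weighted equally, -0.79 with trimmed-mean scaling, -0.37, -0.11 and -0.13 with Lyz2 at 5 UMIs, 20 UMIs and 10 per 10000, -0.24 without Rhox5 cells, -0.11 at 6000 UMIs per cell and -0.75 within cells without C1q. Lower calls went to 1, not 2, with cells weighted equally, Lyz2 at 20 UMIs or 10 per 10000, without Rhox5 cells and at 6000 UMIs. For C1q, the log2 ratio (0.03) was -0.087 with trimmed-mean scaling, -0.12 with Lyz2 at 5 UMIs, 0.12 at 6000 UMIs and 0.21 for 10 or more C1q UMIs per 10000 against 0, with 0 genes called in any direction in the reported split. Of the counts over all genes, 51 of 104 moved by over 1.5 times, and of the counts of the 8 genes 13 of 104 did. The latter can only lie between 0 and 8, so the 2 shares cannot be set against each other. Beyond the smaller sets of cells, the cause of these shifts was not tested. The planned comparison of the highest with the lowest C1q levels was not run, because most cells were at 0. The alternatives without Rhox5 and Cd3 cells together, without Lyz2 UMIs in the Cd3 gate, with C1q at 10 per 10000 and for mature dendritic cells, and the levels without the top cell of a gene, were chosen after seeing the data. No paired analysis was possible because each group has 1 library. Depth limits the NEC side, where 6 of the 8 genes had 26 or fewer UMIs in the Lyz2 gate.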
